A study of Mus musculus with 2 samples.

Results

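Imprinted genes were described by cell class in a single-cell library of mouse pancreatic islets. The genes were Meg3, Rian, Dlk1, Peg3, Nnat, Gnas, Mest and Plagl1, chosen by name as well-known imprinted genes. Of these 8 genes, 7 have a row among the 27998 genes of the deposited table, matched by symbol, and Rian was not analysed here. The study compared islets of mice with a beta cell specific miR-203 transgene (miR-203 TG) with islets of wild-type (WT) mice. Each group was 1 library from male mice aged 8 weeks after a 12-hour fast, made with the 10x Genomics 3′ v2 chemistry. The labels do not name the promoter of the transgene or the number of animals in a library. Their extraction text also describes sorted goblet cells of the gut, but Muc2, the main goblet cell mucin, had 4 UMIs (unique molecular identifiers, which count captured RNA molecules) in all WT cells together. The copy of the miR-203 TG counts used here held 547 of the 23580133 entries its size line names, with 782 UMIs and at most 110 UMIs in a barcode. It therefore held no cell, no cell barcodes could be compared between the libraries, and every comparison below is within the WT library.

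An imprinted gene is transcribed mainly from the copy inherited from 1 parent, because DNA methylation laid down in the egg or the sperm marks the copies differently. Imprinted genes lie in clusters, act in fetal growth and in metabolism after birth, and several are known from work on islets, among them Gnas, which encodes the stimulatory G protein alpha subunit that passes receptor signals to cAMP, and Nnat, which encodes neuronatin, a small membrane protein of the endoplasmic reticulum. Meg3 and Mirg are maternally expressed long noncoding RNAs in 1 cluster with the paternally expressed Dlk1. Which parental copy was transcribed was not measured here, since the files hold no allele. Whether any member, Gnas included, was imprinted in these cells is therefore not known from the levels below.

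The promoters of 3 genes are shown. Those of Meg3 and Peg3 are the members' only windows with a full cAMP response element, the DNA motif through which cAMP signalling acts on genes, and Nnat is the member with the largest spread over beta cells, described below. Each window, from RefSeq on GRCm38.p6, runs from 250 bases before to 50 bases after the annotated start and is written 5′ to 3′ on the strand of the gene. Capitals mark TGACGTCA, the palindromic cAMP response element, and TATAAA, the core promoter motif that positions many transcription starts.
Meg3, chr12:109540746-109541045, plus strand: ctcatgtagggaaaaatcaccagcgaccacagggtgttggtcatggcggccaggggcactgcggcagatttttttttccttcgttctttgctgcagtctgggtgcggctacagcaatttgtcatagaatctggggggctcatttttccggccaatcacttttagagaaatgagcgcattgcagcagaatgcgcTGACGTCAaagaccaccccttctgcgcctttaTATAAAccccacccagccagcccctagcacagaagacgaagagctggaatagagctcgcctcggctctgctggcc
Peg3, chr7:6730370-6730669, minus strand: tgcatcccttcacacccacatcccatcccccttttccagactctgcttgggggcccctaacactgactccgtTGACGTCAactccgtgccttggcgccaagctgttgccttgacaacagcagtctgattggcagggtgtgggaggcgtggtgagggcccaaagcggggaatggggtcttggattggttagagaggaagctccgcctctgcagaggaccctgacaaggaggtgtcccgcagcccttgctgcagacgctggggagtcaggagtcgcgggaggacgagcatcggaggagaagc
Nnat, chr2:157559828-157560127, plus strand: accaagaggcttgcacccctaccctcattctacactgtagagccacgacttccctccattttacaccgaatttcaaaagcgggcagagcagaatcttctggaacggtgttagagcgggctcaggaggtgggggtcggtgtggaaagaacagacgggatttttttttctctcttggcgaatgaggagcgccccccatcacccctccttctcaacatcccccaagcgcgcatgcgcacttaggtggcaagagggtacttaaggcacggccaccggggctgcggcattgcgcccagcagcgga
All 8 genes matched the RefSeq table. The Meg3 window holds TGACGTCA with its first base at position -57 and TATAAA with its first base at position -25, counted so that 0 is the first of the last 50 bases. The Peg3 window holds TGACGTCA with its first base at position -178. Over all 32851 windows of 300 bases, 1.79% hold TGACGTCA and 13.6% hold TATAAA on either strand. The Meg3, Peg3 and Nnat windows shown hold 13, 13 and 17 CG dinucleotides, the bases at which DNA methylation sits. Over all windows the median is 7 and the 90th percentile is 31. A second Meg3 window, not shown, holds 1. The Nnat window holds neither motif. These matches describe letters and do not show binding.

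The WT library held 118523180 UMIs. Cells were barcodes of at least 5610 UMIs and 500 genes, which left 4547 of the 4550 barcodes above the UMI limit, with 88.3% of all UMIs and a median of 21643 UMIs. A barcode was placed in a class by the share of its UMIs from hormone genes. There were 423 alpha cells (Gcg, glucagon, at least 8%), 137 delta cells (Sst, somatostatin, at least 3%), 117 PP cells (Ppy, pancreatic polypeptide, at least 8%) and 3258 beta cells (Ins1 plus Ins2, the insulin genes, at least 30%). A further 63 barcodes met more than 1 cut and were kept apart, and 549 met none. The classes carried their own markers: Irx2 was among the 10 leading genes of alpha cells, Hhex and Rbp4 of delta cells, Pyy of PP cells, and Ucn3 and G6pc2 of beta cells. Among PP cells, 1 barcode had at least 1% haemoglobin UMIs, and Hbb-bs was among the leading genes of that class. Median depth outside the hormone genes was 10536 UMIs in alpha, 7180 in delta, 10378 in PP and 10349 in beta cells. Levels are given in CPM, here UMIs per 1000000 UMIs outside 7 hormone genes (Ins1, Ins2, Iapp, Gcg, Sst, Ppy and Pyy), pooled over the cells of a class, with exact 95% Poisson intervals. With 1 WT library there is no replicate, so no test over samples was possible, and every interval covers counting error only. Free RNA in the suspension was read from barcodes of 200 UMIs or fewer. If all Ins2 in a class had come from free RNA, free RNA would make up 7.60% of the non-hormone UMIs of alpha, 11.5% of delta and 14.9% of PP cells, and for beta cells Gcg sets the like limit at 12.4% and Sst at 15.5%.

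**Figure D1:**
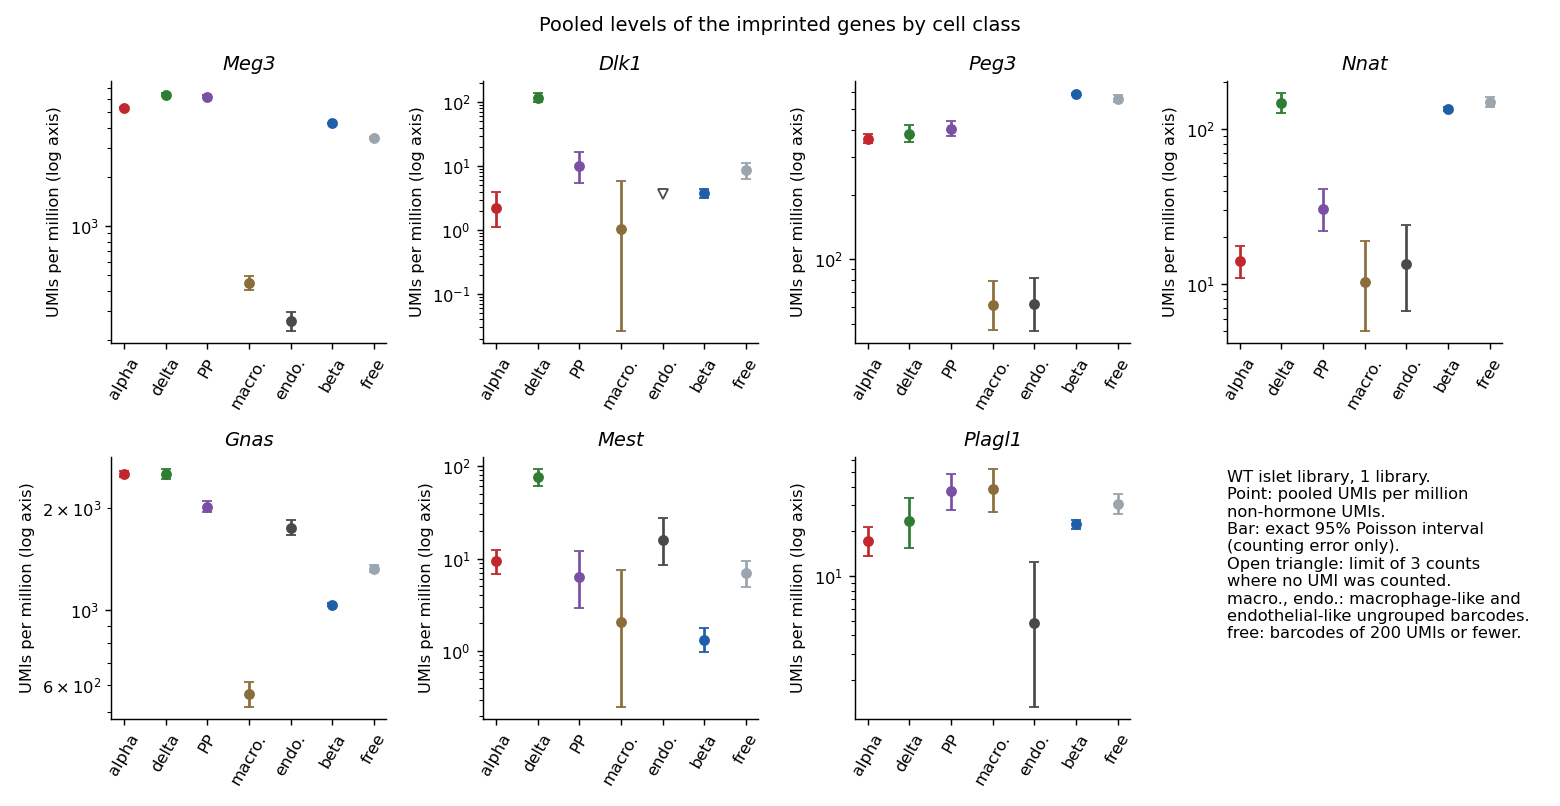
Pooled level of each gene (vertical log axis, CPM of non-hormone UMIs) in alpha, delta, PP, macrophage-like, endothelial-like and beta cells and in free RNA (horizontal axis), with exact 95% Poisson intervals for counting error. Gnas is higher in alpha, delta and PP cells than in beta cells, Dlk1 and Mest stand highest in delta cells, and Nnat is low in alpha and PP cells.

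The members differed between the endocrine classes in different ways. Gnas was about 2-fold higher in alpha, delta and PP cells than in beta cells, Nnat was several-fold lower in alpha and PP cells and within 2-fold in delta cells, and Dlk1 and Mest were many-fold higher in delta cells. Per non-hormone UMI, Meg3 was modestly higher and Peg3 modestly lower in all 3 classes than in beta cells. A gene entered a comparison with a level of at least 20 CPM in either class, and was counted as past 2-fold relative to the median gene, whose log2 ratio to beta cells was -0.36 in alpha, -0.02 in delta and -0.11 in PP cells. In alpha against beta cells, 5 members entered, Gnas was higher and Nnat was lower, beside 16.3% of all 6707 genes past 2-fold either way. In delta against beta cells, 7 members entered and Dlk1, Mest and Gnas were higher, beside 15.8% of 7095 genes. In PP against beta cells, 5 members entered, Gnas was higher and Nnat was lower, beside 12.6% of 6846 genes. Dlk1 and Mest passed the low filter only through delta cells, so they had to differ there. In alpha against beta cells, Nnat (13.98 against 134 CPM) and Plagl1 (17.2 against 22.4 CPM) passed it only through beta cells. These 2 levels had to be lower in alpha cells, and no median over the members is given.

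Gnas (ENSMUSG00000027523, chromosome 2, 174284320 to 174346744, plus strand) encodes the stimulatory G protein alpha subunit and, from alternative first exons, other transcripts that a 3′ count cannot separate. Its level was 2514 CPM (95% interval 2470 to 2559) in alpha cells, 2517 (2428 to 2608) in delta cells, 2015 (1941 to 2090) in PP cells and 1035 (1025 to 1046) in beta cells. The alpha and delta values did not differ beyond their counting intervals, PP cells lay below both, and beta cells lay lowest of the hormone classes. The ratio to beta cells was 2.43 (2.38 to 2.48) in alpha, 2.43 (2.34 to 2.52) in delta and 1.95 (1.87 to 2.02) in PP cells. The difference was a shift of the whole population: the median cell had 23.5 Gnas UMIs per 10000 non-hormone UMIs in alpha, 24.4 in delta, 18.3 in PP and 9.89 in beta cells. The 10th percentile of alpha cells was 14.9 per 10000, while the 90th percentile of beta cells was 15.6 per 10000. Alpha and beta cells thus overlapped mainly in their tails. PP cells overlapped beta cells further, with a 10th percentile of 10.7 and a 25th percentile of 14.4 per 10000. After every cell was thinned to 2000 non-hormone UMIs, Gnas was found in 98.3% of 423 alpha, 97.8% of 137 delta, 99.1% of 117 PP and 85.2% of 3246 beta cells, with 12 beta cells left out as too shallow. The PP value stood close to the 2-fold line, at 1.07 on the log2 scale once the median gene was set to 0, and fell to 0.91 without the UMIs of the 4 PP cells and the 4 beta cells with most Gnas UMIs. Nespas, a noncoding RNA on the opposite strand of the Gnas locus, was picked after its values were seen. It had 5 UMIs in alpha, 20 in delta, 2 in PP and 34 in beta cells, or 1.01 (0.33 to 2.36), 16.7 (10.2 to 25.8), 1.41 (0.17 to 5.10) and 0.94 (0.65 to 1.32) CPM. The 20 Nespas UMIs of delta cells lay in 18 of 137 cells. Gm20721 also overlaps Gnas on the opposite strand, and no source used here says whether counting used the strand.

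The other genes of G protein and cAMP signalling differed in both directions. Of 37 listed genes, 29 entered each comparison, and 27.6% of these were past 2-fold in alpha, 20.7% in delta and 27.6% in PP cells, beside 16.3%, 15.8% and 12.6% of all genes. In alpha cells 3 were higher and 5 lower, with Pde4d (2.48 on the log2 scale against the median gene) and Gng2 (2.15) highest and Gcgr (-2.70) and Prkar2b (-2.31) lowest. In delta cells 2 were higher, again Pde4d (2.39) and Gng2 (1.91), and 4 were lower, with Gcgr (-2.76, on 5 delta UMIs) and Gipr (-1.97) lowest. In PP cells 2 were higher, Pde4d (2.21) and Gnai1 (1.55), and 6 were lower, with Gcgr (-2.42) and Gipr (-1.74) lowest. Gcgr entered each comparison only through beta cells, so it had to be lower in the other class. Pde4d encodes a phosphodiesterase that breaks down cAMP, Gng2 a G protein gamma subunit and Gnai1 an inhibitory alpha subunit, Prkar2b a regulatory subunit of protein kinase A, and Gcgr and Gipr the receptors for glucagon and for the incretin GIP. The list's median log2 ratio was -0.10 in alpha, -0.13 in delta and -0.09 in PP cells. It includes Gcgr, so it is not read as a shift of the list.

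Nnat (ENSMUSG00000067786, chromosome 2, 157560078 to 157562522, plus strand) lies inside Blcap, which runs on the opposite strand. Its level was 13.98 CPM (10.9 to 17.7) in alpha cells, 147 (126 to 170) in delta cells, 30.4 (21.97 to 40.9) in PP cells and 134 (130 to 138) in beta cells. Alpha cells were 9.57-fold (7.55 to 12.3) and PP cells 4.40-fold (3.27 to 6.09) lower than beta cells, while the delta to beta ratio was 1.098 (0.94 to 1.28). The delta value depended on depth: its log2 ratio against the median gene was 0.15, but -0.75 with the UMI limit doubled and 0.38 with equal weight for each cell, so no direction can be given. Free RNA was at 149 CPM for Nnat, and the Ins2 limit allows 11.3 of the 13.98 CPM in alpha cells and 22.2 of the 30.4 in PP cells to be free RNA, so most of the Nnat level in those classes could be free RNA. The same limit allows 17.1 of the 147 CPM in delta cells. In beta cells free RNA could supply 18.5 of the 134 CPM by the Gcg limit and 23.1 by the Sst limit. Blcap, the host gene, was at 28.0 CPM in alpha, 48.4 in delta, 38.1 in PP and 39.9 in beta cells and was within 2-fold in each class. Neuronatin is known to assist signal peptidase, the enzyme complex that trims preprohormones on entry into the endoplasmic reticulum. Of 20 listed genes of signal peptidase and translocation, 19 entered each comparison. None was past 2-fold in alpha or PP cells, beside 16.3% and 12.6% of all genes. Only Spcs3, a signal peptidase subunit, was lower in delta cells (log2 ratio -1.13, 88.4 against 196 CPM in beta cells), beside 15.8% of all genes past 2-fold.

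Nnat was also spread differently over delta and beta cells. After thinning to 2000 UMIs, 43 of 137 delta cells had a Nnat UMI (31.4%, exact 95% interval 23.7 to 39.9), against 484 of 3246 beta cells (14.9%, 13.7 to 16.2). The same share was 2.60% in alpha and 10.3% in PP cells, where most of the level could be free RNA. Without thinning, 56.2% of delta cells and 42.1% of beta cells had a Nnat UMI, and some of these UMIs could be free RNA. Also without thinning, 1 of 137 delta cells and 98 of 3258 beta cells had 10 or more Nnat UMIs, and the highest had 12 and 199. Beta cells were more numerous and deeper, with a median of 10349 non-hormone UMIs against 7180. These counts and maxima therefore do not show a difference in spread on their own.

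**Figure D2:**
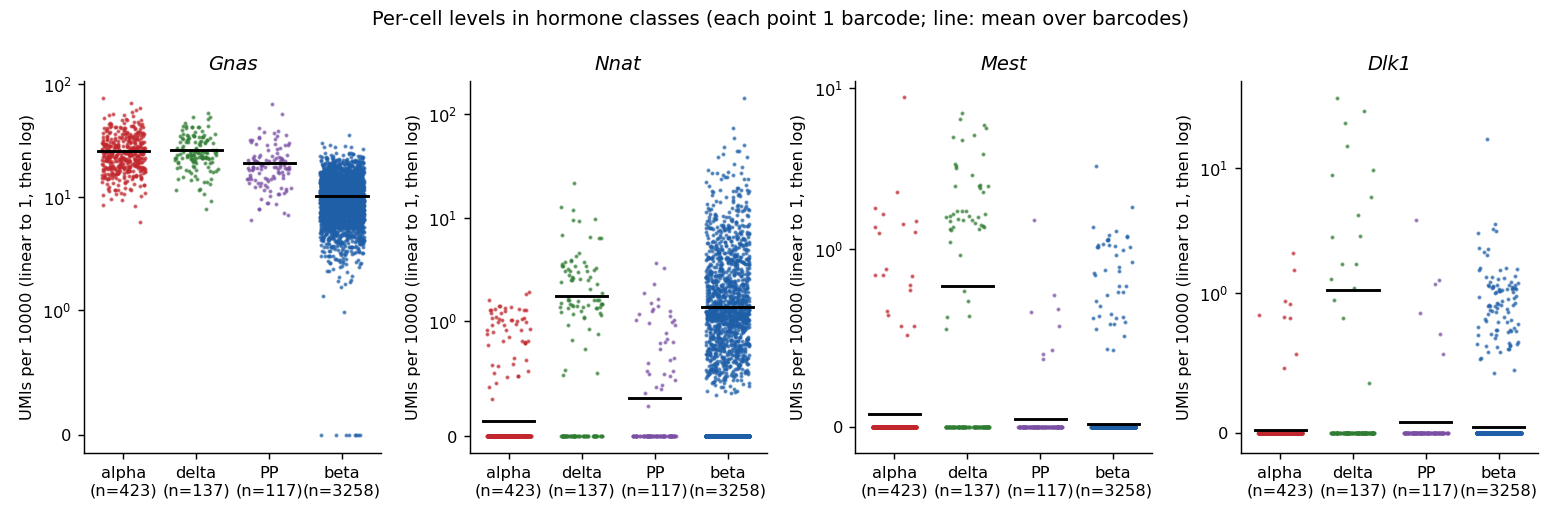
Gnas, Nnat, Mest and Dlk1 in single cells (vertical axis, UMIs per 10000 non-hormone UMIs, linear up to 1 and logarithmic above) by class, with 1 point per cell and a line at the mean over cells. Gnas differs as a shift of all cells, with medians of 23.5, 24.4, 18.3 and 9.89 in alpha, delta, PP and beta cells, while Nnat in beta cells and Dlk1 in delta cells show a few cells far above the rest.

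Dlk1 (ENSMUSG00000040856, chromosome 12, 109452823 to 109463336, plus strand) encodes a membrane protein related to Notch ligands. Its level was 2.23 CPM (1.11 to 3.99) in alpha cells, 118 (99.7 to 140) in delta cells, 9.88 (5.40 to 16.6) in PP cells and 3.77 (3.16 to 4.46) in beta cells, so that delta cells were 31.4-fold (24.6 to 40.0) above beta cells. Free RNA was at 8.56 CPM and could supply 0.98 CPM of the delta level. Few delta cells carried it. Dlk1 UMIs were found in 17 of 137 delta cells, and 4 cells with 37, 36, 20 and 17 UMIs held 110 of the 142. Without the UMIs of these 4 cells the delta level was 26.7 CPM, and with the same step taken in beta cells the log2 ratio against the median gene was 3.26 in place of 4.99. The 4 cells had 7.78% to 12.3% Sst, well inside the delta cut. In 1 of them insulin made up 20.8% of UMIs, against 2.01% to 2.68% in the others. In PP cells 8 of 14 Dlk1 UMIs lay in 1 cell. The highest beta barcode had 23 of the 136 UMIs of its class, together with 1.02% Sst and 24 UMIs of the delta marker Rbp4. In the Notch list, 4, 7 and 5 of 23 genes entered in alpha, delta and PP cells. None was past 2-fold in alpha or delta cells, and in PP cells only Hes1, a transcription factor induced by Notch, was higher (1.65, 45.9 against 15.8 CPM). Hes1 entered only through PP cells, the class in which it is high, so it had to differ. Over all genes, 16.3% were past 2-fold in alpha, 15.8% in delta and 12.6% in PP cells.

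Mest (ENSMUSG00000051855, chromosome 6, 30723547 to 30748465, plus strand) encodes a paternally expressed hydrolase-like protein, and its 3′ end overlaps Copg2 on the opposite strand. It was at 9.32 CPM (6.82 to 12.4) in alpha cells, 75.9 (61.1 to 93.2) in delta cells, 6.35 (2.91 to 12.1) in PP cells and 1.33 (0.98 to 1.77) in beta cells. Delta cells were thus 57.0-fold (39.8 to 82.6) above beta cells, where Mest was near the 0.86 CPM that free RNA allows by Gcg and the 1.08 CPM it allows by Sst. Mest was spread over many delta cells, 46 of 137 with at most 7 UMIs each, and without the UMIs of the 4 highest cells the level was still 57.5 CPM. In alpha cells 1 cell held 13 of the 46 UMIs, and the level without it was 6.68. Copg2 was within 2-fold in each class. Of the 17 delta cells with Dlk1, 7 had Mest (41.2%), against 33.6% of all delta cells, and these were 15.2% of the 46 cells with Mest, while none of the 4 cells with most Dlk1 had a Mest UMI. Of the 46 cells with Mest, 31 had Nnat (67.4%), against 56.2% of all delta cells.

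Meg3 (ENSMUSG00000021268, chromosome 12, 109541001 to 109571726, plus strand) was at 5283 CPM (5219 to 5348) in alpha cells, 6401 (6258 to 6545) in delta cells, 6218 (6089 to 6349) in PP cells and 4285 (4264 to 4306) in beta cells. Delta and PP cells did not differ beyond their counting intervals, and alpha and then beta cells lay below them. At least 99.4% of the cells in each class had a Meg3 UMI. Gm26906 overlaps its 3′ end on the opposite strand. Mirg, a noncoding RNA further along the same cluster, was at 77.4 CPM (69.8 to 85.5) in alpha, 132 (112 to 154) in delta, 91.8 (76.7 to 109) in PP and 105 (102 to 108) in beta cells and was within 2-fold in each class. Against the median gene, Meg3 had log2 ratios to beta cells of 0.66 in alpha, 0.60 in delta and 0.65 in PP cells, and Mirg had -0.08, 0.35 and -0.08, so the lower Mirg level of alpha cells did not stand apart from the median gene.

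Peg3, which encodes a zinc finger protein (ENSMUSG00000002265, chromosome 7, 6703892 to 6730431, minus strand), was at 365 CPM (349 to 382) in alpha cells, 385 (351 to 422) in delta cells, 407 (374 to 441) in PP cells and 589 (581 to 597) in beta cells. The intervals of alpha, delta and PP cells overlapped, and beta cells stood above them all, with log2 ratios against the median gene of -0.33 in alpha, -0.59 in delta and -0.42 in PP cells. With all UMIs as the denominator, which counts the hormone UMIs too, the order of levels turned, to 259 UMIs per 1000000 in alpha, 298 in delta, 227 in PP and 255 in beta cells, while the log2 ratios against the median gene stayed below 0. Plagl1, a zinc finger transcription factor linked in humans to transient neonatal diabetes (ENSMUSG00000019817, chromosome 10, 13060504 to 13131694, plus strand), was at 17.2 CPM (13.8 to 21.3) in alpha, 23.3 (15.5 to 33.7) in delta, 37.4 (28.0 to 48.9) in PP and 22.4 (20.8 to 24.0) in beta cells. PP cells stood highest of the hormone classes for Plagl1, at 0.85 on the same log2 scale and at 1.16, past 2-fold, with the hormone cuts raised 1.5 times, and the interval of delta cells overlapped all others.

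Outside the endocrine classes, 84 macrophage-like and 102 endothelial-like barcodes were named from their markers among those that met no hormone cut. Gnas was at 565 CPM (518 to 614) in macrophage-like and 1748 (1658 to 1840) in endothelial-like cells, which places endothelial-like cells above beta cells. Meg3 was at 449 and 260 CPM, of which free RNA could supply 296 and 225. A single barcode held 95 of the 433 Meg3 UMIs of macrophage-like cells, and another 42 of the 214 of endothelial-like cells. Peg3 was at 61.2 and 62.0 CPM, of which free RNA could supply 48.2 and 36.6. Nnat was at 10.4 and 13.4 CPM, at or near the 12.8 and 9.70 that free RNA allows. Mest was at 2.07 in macrophage-like and 15.8 in endothelial-like cells, where free RNA allows 0.45. Plagl1 was at 38.4 (27.0 to 52.9) in macrophage-like cells, on 37 UMIs with 9 in 1 barcode. In endothelial-like cells it was at 4.86 (1.33 to 12.5), on 4 UMIs. Dlk1 had 1 UMI in macrophage-like cells and 0 in endothelial-like cells, for which a limit of 3 counts is 3.65 CPM.

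The spread of each gene over beta cells was measured as overdispersion, the variance beyond counting divided by the squared mean, after thinning to 2000 non-hormone UMIs. Each value was set beside the median over genes with a mean within 2-fold. Dlk1 and Mest, with a mean below 0.02 UMIs per thinned cell, were too sparse for it. All 5 other members were above the median of their like genes, beside 50.2% of all 8481 genes. Nnat stood apart, with an overdispersion of 10.4 against a median of 0.113 over 2030 like genes, of which only Cd74, an antigen presentation gene, was higher (29.4). Meg3 had 0.14 against 0.050 and Peg3 0.136 against 0.087. Gnas had 0.0754 against 0.0676, and in 4 other random thinnings it had 0.0435 to 0.0633, below its like genes. Plagl1 had 0.94 against 0.246, but other thinnings gave -0.311 to 2.94, so its spread could not be measured at this depth. In the other thinnings Nnat had 7.99 to 11.5, Meg3 0.131 to 0.141 and Peg3 0.106 to 0.165, each above its like genes.

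Most Nnat RNA of beta cells lay in few cells. Of 3258 beta cells, 1887 had no Nnat UMI, 715 had 1, and the 98 cells with 10 or more held 43.3% of the UMIs. The 33 cells of highest level, the top 1%, held 24.4% of Nnat UMIs, and the top 5% held 52.1%. The same top 5% held 8.45% of Meg3, 9.15% of Gnas, 10.7% of Peg3 and 40.8% of Plagl1 UMIs, each gene ranked on its own. Plagl1 had at most 5 UMIs in a beta cell, so its curve is that of a sparse gene. The single highest Nnat cell had 199 UMIs and the next had 90, and without the highest cell the beta level was 128 CPM.

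**Figure D3:**
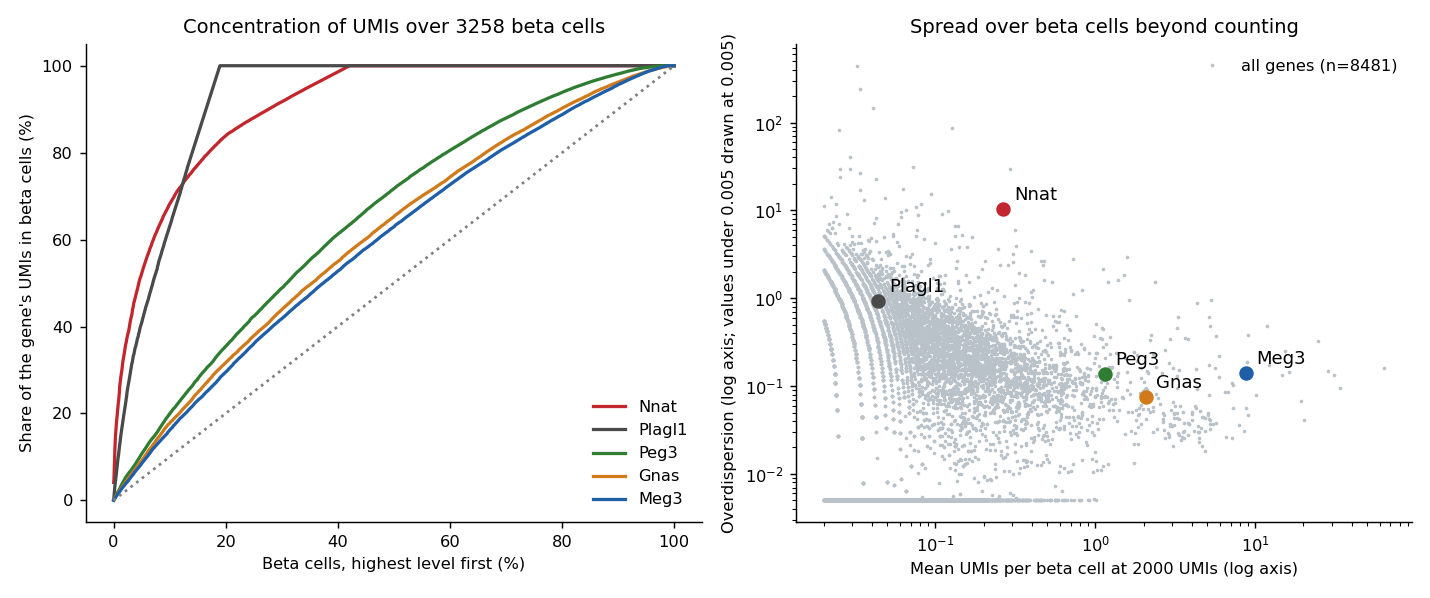
Left, share of each gene's UMIs (vertical axis, percent) held by beta cells ranked from the highest level down (horizontal axis, percent of cells), with a dotted line for equal levels. Right, overdispersion against mean UMIs per thinned beta cell (log axes) for 8481 genes in grey and the 5 computed members in colour. Nnat, at 10.4, lies far above genes of like mean, and its top 5% of cells hold 52.1% of its UMIs.

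Over beta cells, the genes most like each member were ranked by Pearson r of log levels among 8769 genes with a mean of at least 0.1 UMI. All cells share 1 library and differ in depth. Meg3 went most with Malat1 (r = 0.59), a nuclear noncoding RNA, and with the mitochondrial transcripts mt-Co1 (0.44) and mt-Co2 (0.33). Peg3 also went with Malat1 (0.26) and mt-Co1 (0.24), and then with Meg3 (0.23). Spearman's rho was smaller, at 0.33 for Meg3 with Malat1, 0.10 for Peg3 with Malat1 and 0.097 for Peg3 with Meg3. On thinned counts r for these pairs was 0.38, 0.088 and 0.068. Depth and mitochondrial share move with these genes: Meg3 had r = 0.14 but a Spearman rho of -0.15 with log non-hormone UMIs, and r = 0.19 and rho = 0.088 with the mitochondrial share of non-hormone UMIs, and their part in the values was not tested. Meg3 and Mirg, of 1 cluster, had r = 0.31 in beta cells and 0.30 in alpha cells, where Mirg was first among 8118 genes. On thinned counts these were 0.15 and 0.082. Gnas went most with Chga, a granule protein (0.20), Ppia (0.20) and Atp5h (0.20). Mest went with Sst (0.16), though only 44 beta cells had a Mest UMI. For Nnat, Dlk1 and Plagl1 no gene reached 0.15, and Nnat had r of 0.0015 with Gnas, 0.038 with Meg3 and 0.056 with Peg3.

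Nnat and Gnas were higher in beta cells with a larger insulin share, and Meg3 and Plagl1 were lower. With insulin at 30 to 40%, 40 to 50%, 50 to 60% and 60% or more of UMIs (471, 1057, 1339 and 391 cells), Nnat was at 92.6 (85.1 to 100.7), 119 (113 to 125), 143 (137 to 149) and 204 (191 to 219) CPM. Thinned shares of cells with a Nnat UMI were 12.1% (9.30 to 15.4), 13.1% (11.1 to 15.2), 16.1% (14.1 to 18.1) and 19.5% (15.6 to 23.8). Without the UMIs of the 4 cells with most Nnat in each bin, the levels were 75.9, 99.1, 129 and 130 CPM, so the step into the last bin rested on those cells. Gnas was at 928 (904 to 953), 980 (962 to 998), 1066 (1049 to 1083) and 1242 (1208 to 1276) CPM over the same bins. Meg3 was at 4795, 4263, 4223 and 3815 CPM and Malat1 at 33350, 32297, 30912 and 28515. Plagl1 was at 28.7 (24.6 to 33.3), 26.2 (23.3 to 29.3), 18.2 (16.04 to 20.5) and 16.7 (13.02 to 21.2) CPM. Peg3 was at 643, 599, 560 and 580 CPM, with no step between the last 2 bins beyond counting error (548 to 572 and 557 to 604). The median mitochondrial share of non-hormone UMIs moved with the bins, at 7.96%, 7.65%, 7.09% and 6.65%. Median total depth, which counts the insulin UMIs that define the bins, was 21530, 20992, 24513 and 34322 UMIs. Median depth outside the hormone genes was 12750, 10131, 9876 and 10816 UMIs, highest in the first bin. The part of mitochondrial share and depth in these levels was not tested.

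**Figure D4:**
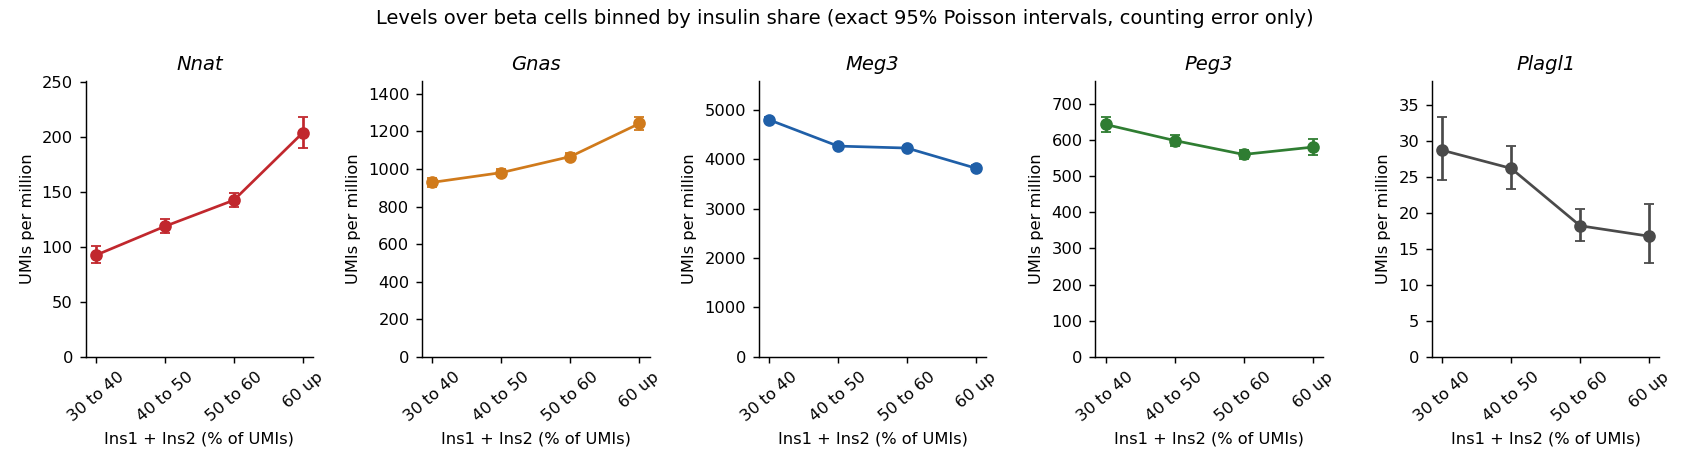
Pooled levels (vertical axes from 0, CPM of non-hormone UMIs) of 5 genes in beta cells binned by the share of UMIs from Ins1 and Ins2 (horizontal axis, percent), with exact 95% Poisson intervals. Nnat runs from 92.6 to 204 and Gnas from 928 to 1242 over the bins, while Meg3 and Plagl1 are lower in the last bin than in the first.

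Other genes listed as imprinted differed between classes in both directions. They were listed by name, and imprinting in islet cells was not measured for any of them. Of 63 further genes listed, 60 have a row. In alpha cells 31 entered, 8 were higher and 6 lower, in delta cells 29 entered, 4 were higher and 5 lower, and in PP cells 30 entered, 8 were higher and 4 lower. The background shares are 7.74% higher and 8.51% lower in alpha, 7.94% and 7.91% in delta and 5.87% and 6.72% in PP cells. Some of the listed genes entered only through the class in which they are high and so had to differ, Sgce and Peg10 among them. The list's median log2 ratio, 0.13 in alpha, 0.19 in delta and 0.10 in PP cells, includes such genes and is not read as a shift. Sgce, which encodes a sarcoglycan, had the highest ratio in each class, with log2 ratios of 5.02 in alpha, 4.76 in delta and 3.92 in PP cells. Its level was 49.8 CPM (43.8 to 56.5) in alpha, 52.5 (40.4 to 67.2) in delta, 27.5 (19.6 to 37.6) in PP and 1.97 (1.54 to 2.48) in beta cells, where the limit for free RNA is 1.58 by Gcg and 1.98 by Sst. Peg10, a retrotransposon-derived gene that shares a promoter region with Sgce, was second in alpha (4.80) and PP cells (3.86). It was at 43.5 CPM (37.9 to 49.8) in alpha, 19.2 (12.2 to 28.8) in delta, 26.8 (18.98 to 36.8) in PP and 2.00 (1.56 to 2.51) in beta cells. Delta cells missed the low filter for Peg10 by a small margin. Cd81, which encodes a tetraspanin, was second in delta cells (2.77), at 228 CPM in alpha, 307 in delta, 250 in PP and 45.6 in beta cells.

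The lowest ratios belonged to genes with high levels in beta cells. Th (tyrosine hydroxylase) and Rasgrf1 (a Ras exchange factor) were lowest in alpha cells, at -2.78 and -2.70. Ddc (dopa decarboxylase) and Th were lowest in delta cells, at -3.25 and -2.97, the second on 7 UMIs. Rasgrf1 and Th were lowest in PP cells, at -2.09 and -1.92, the second on 16 UMIs. Th entered each comparison only through beta cells, so it had to be lower in the other class. Th and Ddc catalyse successive steps of dopamine synthesis. Ddc was at 59.6 CPM in alpha, 25.8 in delta, 78.4 in PP and 249 in beta cells, of which free RNA could supply 12.99, 19.6 and 25.4 in alpha, delta and PP cells. Rasgrf1 was at 22.5 CPM in alpha, 84.2 in delta, 40.9 in PP and 188 in beta cells, and free RNA could supply 13.3 of the alpha and 26.0 of the PP level. H19, a maternally expressed noncoding RNA, had 0 UMIs in every class, for which a limit of 3 counts is 0.61 CPM in alpha, 2.502 in delta, 2.12 in PP and 0.083 in beta cells. Its neighbour Igf2, the insulin-like growth factor gene, had 2 UMIs in alpha, 0 in delta (the same limit of 2.502 CPM), 1 in PP and 147 in beta cells, the last at 4.08 CPM (3.44 to 4.79). Both were picked for the low levels seen.

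**Figure D5:**
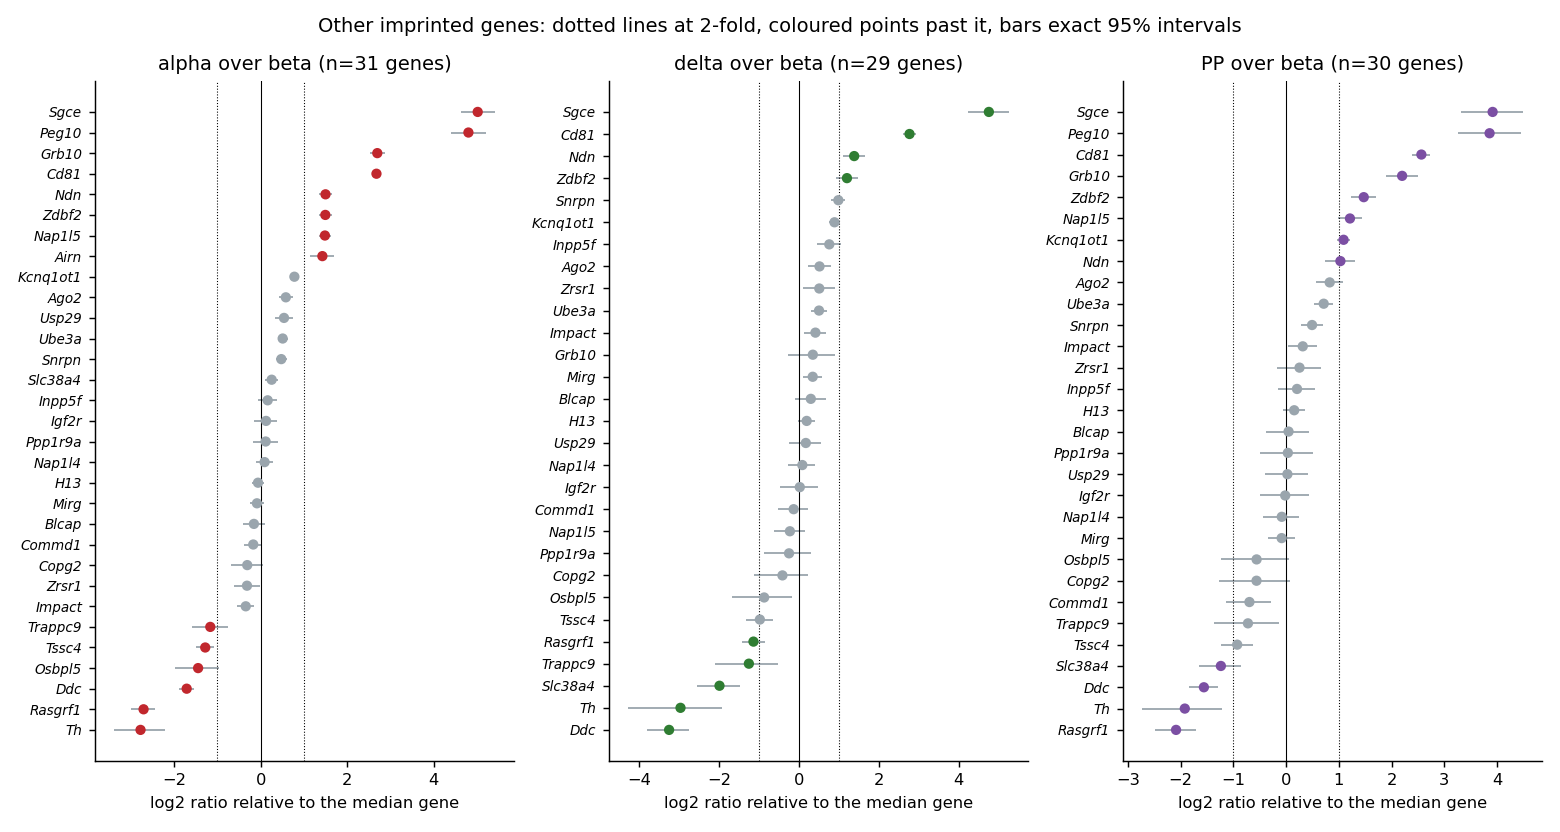
Log2 ratio relative to the median gene (horizontal axis) of each other imprinted gene that entered, in alpha, delta and PP cells over beta cells (panels), with exact 95% intervals for counting error and dotted lines at 2-fold. Sgce stands highest in each panel, at 5.02, 4.76 and 3.92, and the coloured points are the 14, 9 and 12 genes past 2-fold.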

How the data were processed

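The authors deposited raw counts, UMIs per gene and barcode, for each library of islet cells, with no cell types. Per the submitters' processing notes, FastQC and Trimmomatic were used and the build was mm10. The counting tool is not given in the sources used here. Levels, ratios, exact Poisson, Clopper-Pearson and conditional binomial intervals, all at 95%, were computed with Python 3.11.15, numpy 2.4.6 and scipy 1.17.1 from the deposited counts. The UMI limit of 5610 was set at 10% of the UMIs of the barcode at percentile 99 among the 3000 deepest. Hormone cuts defined the classes, and no doublet caller was run, so barcodes that met more than 1 cut were set apart. Macrophage-like and endothelial-like barcodes had at least 20 marker UMIs per 10000 and 3 markers, and under 1% haemoglobin UMIs. A gene's ratio was judged against the median gene. Thinning used seed 7, and the minimum mean of 0.02 for overdispersion was set after the data were seen. Ratios and overdispersion were tested on simulated data. Of each further list the text names the 2 highest and 2 lowest genes past 2-fold with at least 20 UMIs in either class, and of each member's like genes the first 3 with r of at least 0.15. Mirg, Blcap, Copg2, Nespas, H19 and Igf2 were named outside this rule, after their values were seen. The members and lists were chosen with earlier results of these data known. Alternatives covered cuts, depth, weights, filters, free RNA, scaling and denominators.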

Additional observations from a re-analysis of the deposited data

How the results depend on the processing

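Members past 2-fold numbered 2 to 3 in alpha and 3 in delta cells under every alternative run, and Gnas was higher in both and Nnat lower in alpha cells under each. In PP cells the count of 2 became 3 with the hormone cuts raised 1.5 times, where Plagl1 was at 1.16, 4 with a low filter of 5 CPM, which lets Dlk1 and Mest in, and 1 with the trimmed mean of M values, with all UMIs as denominator and without the UMIs of the 4 highest barcodes of each member (chosen after seeing the data), where the Gnas log2 ratio was 0.99, 1.00 and 0.91. With free RNA taken off, the Nnat log2 ratio was -5.15 in alpha and -3.68 in PP cells. Of the other imprinted genes, 8 in place of 14 were past 2-fold in alpha cells with a filter of 50 CPM, which leaves 18 genes to test. Members above like genes in overdispersion were 3 to 5, the 3 with 1 other random thinning (chosen after seeing the data). With the 33 highest beta cells of each gene left out, also chosen after seeing the data, the Nnat overdispersion was 3.06 against -0.53 for like genes. No ratio past 2-fold changed sign. Among the others, the Nnat log2 ratio of delta cells was -0.75 with the UMI limit doubled and -0.03 without the 4 highest barcodes, against 0.15, and Plagl1, near 0 in alpha and delta cells, changed sign under some alternatives. The order of Peg3 levels turned with all UMIs as the denominator. Gnas overdispersion fell below that of its like genes in 4 other thinnings. No paired analysis was possible because each group has 1 library. With 1 WT library, intervals cover counting error only, and differences between mice were not measured.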

Other observations

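The 63 barcodes that met more than 1 hormone cut had levels between or near those of their classes: Gnas was at 2651 CPM (2537 to 2768), Meg3 at 5674 (5506 to 5845), Nnat at 37.8 (25.3 to 54.2), Mest at 36.5 (24.2 to 52.7) and Dlk1 at 5.21 (1.42 to 13.3). Among the 549 barcodes that met no cut, the 363 that were neither macrophage-like nor endothelial-like had a median insulin share of 20.9%, with Nnat at 82.7 CPM, Gnas at 1435 and Dlk1 at 23.2 (19.3 to 27.6). The 109 barcodes just inside the beta cut (30 to 33% insulin) had 910 CPM of Gnas and 71.8 CPM of Nnat, and the 83 just outside it (27 to 30%) had 1162 and 122. The 8 barcodes just inside the delta cut and the 9 just outside had Mest at 68.3 and 31.0 CPM and Dlk1 at 51.3 and 140. The delta values rest on few barcodes and few UMIs, so no step across that cut can be read from them. At the beta cut, Gnas and Nnat were higher just outside than just inside. Within beta cells both were higher with a larger insulin share, and that order did not continue below the cut. No interval was computed at either cut.

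In the barcodes that the miR-203 TG copy holds, which are no cells, Meg3 and Gnas had 1 UMI each of 782 and the other 5 members had 0, which allows up to 3836 UMIs per 1000000 of all UMIs. Free RNA of the WT library would give 1.503 Meg3 and 0.58 Gnas UMIs in a sample of that size.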
